A study of Homo sapiens with 4 samples.

Results

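The CD1 genes and the T cell co-receptor genes CD4, CD8A and CD8B, with CD38 and CD99, were examined in Jurkat cells, an established human T cell acute lymphoblastic leukemia line. They were chosen by gene symbol, and all 10 symbols matched 1 gene row each among the 64252 gene IDs of the count table. One group of 2 libraries came from cells transfected with a scramble short hairpin RNA (sh-Scb), called the controls here. The other group of 2 libraries came from cells transfected with a hairpin against the transcription factor SOX4 (sh-SOX4). All libraries share the parental line and no other treatment is labelled. Nothing in the labels says that replicates came from separate cultures. The p-values below therefore reflect the spread among 4 libraries, part of which may be technical.

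CD1 proteins resemble major histocompatibility complex class I molecules, pair with beta-2 microglobulin and display lipids in place of peptides. CD1A, CD1B and CD1C belong to group 1, CD1D presents lipids to invariant natural killer T cells, and CD1E works inside the cell in loading lipids onto the others. In the thymus, CD1A marks cortical thymocytes, which carry CD4 and CD8 together and also display CD38 and CD99 at their surface. The same markers are used to stage T cell leukemias, in which CD1A defines a cortical form.

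The libraries summed to between 29093287 and 36636219 counts. SOX4 itself was at 271 and 277 CPM (counts scaled to sequencing depth) in sh-Scb and 191 and 199 CPM in sh-SOX4, which left 71.1% of the control level. T lineage markers checked the cell type, and all 10 listed were measured. Their summed level was 1520 to 1559 CPM in sh-Scb and 1739 to 1825 CPM in sh-SOX4. Of the 10, edgeR called 6 higher and 1 lower, beside 23.2% higher and 20.9% lower among all tested IDs. Among them TRBC1 was at 65.2 and 142 CPM in the sh-SOX4 libraries. CD1 genes are also used by dendritic cells, so a list of 9 dendritic and Langerhans cell markers was read beside them. CLEC10A and FCER1A had 0 counts in every library, HLA-DRA had 1 count in all, and 4 of the 9 passed the filter on low counts. Their summed level was 135 to 138 CPM in sh-Scb and 94.8 to 98.6 CPM in sh-SOX4, nearly all of it LAMP3, which was called lower. The 4 B cell markers, of a cell type that also uses CD1C, CD1D and CD38, summed to 66.5 to 68.3 CPM in the controls and 14.1 to 14.6 CPM with the SOX4 hairpin, with 3 tested and CD79A called lower. The 5 monocyte and macrophage markers summed to 0.291 to 1.07 CPM over all libraries, with LYZ and MARCO at 0 counts, and the 4 natural killer cell markers to 1.28 to 2.2 CPM. The part of these markers in the results was not tested. Across a bulk culture, fewer cells with a transcript and less transcript per cell cannot be told apart.

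RefSeq promoter windows matched 7 of the 10 genes (CD1A, CD1C, CD1D, CD1E, CD8A, CD38 and CD99) and not CD1B, CD4 or CD8B. Those of 4 CD1 genes and CD38 are shown because the CD1 genes stand side by side on chromosome 1, where some were called and others were not, and CD38 had the smallest p-value. Each run lies on the plus strand of GRCh38.p14, begins 250 bases before a RefSeq start and stops before that start or before the first GENCODE release 29 exon, whichever comes first. Capitals mark matches to ACAAAG, a core recognised by SOX factors, or to CANNTG, the E-box of basic helix-loop-helix factors, on either strand. No match to ACAATG, the other SOX core searched, lies in a window of these genes.
CD1D, chr1:158179697-158179946: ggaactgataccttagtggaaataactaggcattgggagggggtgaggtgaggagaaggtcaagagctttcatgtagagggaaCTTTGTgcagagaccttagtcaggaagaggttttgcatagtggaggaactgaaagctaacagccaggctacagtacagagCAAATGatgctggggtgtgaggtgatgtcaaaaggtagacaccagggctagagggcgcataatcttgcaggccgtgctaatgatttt
CD1A, chr1:158248086-158248335: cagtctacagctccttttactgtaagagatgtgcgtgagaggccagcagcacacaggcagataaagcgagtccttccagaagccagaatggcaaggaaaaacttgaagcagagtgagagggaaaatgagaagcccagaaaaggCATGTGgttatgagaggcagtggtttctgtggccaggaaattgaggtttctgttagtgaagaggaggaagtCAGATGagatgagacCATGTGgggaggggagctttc
CD1C, chr1:158289673-158289785: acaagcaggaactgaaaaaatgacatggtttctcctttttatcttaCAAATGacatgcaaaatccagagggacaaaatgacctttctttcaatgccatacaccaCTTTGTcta
CD1E, chr1:158353644-158353695: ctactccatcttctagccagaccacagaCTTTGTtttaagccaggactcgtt
CD38, chr4:15778078-15778274: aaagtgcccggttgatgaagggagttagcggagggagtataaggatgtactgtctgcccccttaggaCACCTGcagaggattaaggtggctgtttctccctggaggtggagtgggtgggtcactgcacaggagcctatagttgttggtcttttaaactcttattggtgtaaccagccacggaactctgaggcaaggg
The CD1A run precedes an alternative start upstream of the annotated gene. The window at its main start lies within annotated exons and is not printed.

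Over the full windows of 300 bases, ACAAAG occurred in the first CD1D window, in CD1C and in CD1E, with 1 match each. It did not occur in either CD1A window, in the second CD1D window, or in those of CD38, CD99 and CD8A. Among all 35116 RefSeq promoter windows of this length, 16.1% held ACAAAG, 10.8% held ACAATG and 68.7% held CANNTG. E-boxes numbered 3 in the upstream CD1A window and 1 in that at its main start. There were 4 in the CD1C window, 2 in the CD38 window and 1 in the first CD1D window. CD8A windows held 3, 4 and 1. None lay in a further CD8A window, the second CD1D window, the CD1E window or the CD99 window. The pattern CANNTG does not overlap the ACAAAG matches in the runs above. A match is a description of letters and not of binding.

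Between the groups, CD1A, CD1B, CD4 and CD38 fell in sh-SOX4 and the other 6 genes did not pass the test. Across all 19897 gene IDs tested with edgeR's quasi-likelihood test, 44.1% were called at an adjusted p under 0.05, 23.2% higher and 20.9% lower. The 4 lower calls among 10 genes stand beside that share of 20.9%, and a call in this data set is common. No gene of the 10 was called higher by edgeR, DESeq2 or limma-voom, and at an unadjusted p under 0.05 each of these tools also gave 0. The median log2 fold change of the 10 was -0.50, against -0.01 for all tested IDs. The groups did not overlap for 8 genes, 7 lower and 1 higher. Of all tested IDs 72.9% had groups that did not overlap, 36.6% lower and 36.3% higher. Scaling to library totals turned 52.5% higher calls among all calls into 40.8%, and kept the sign of the change for each of the 10 genes.

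**Figure D1:**
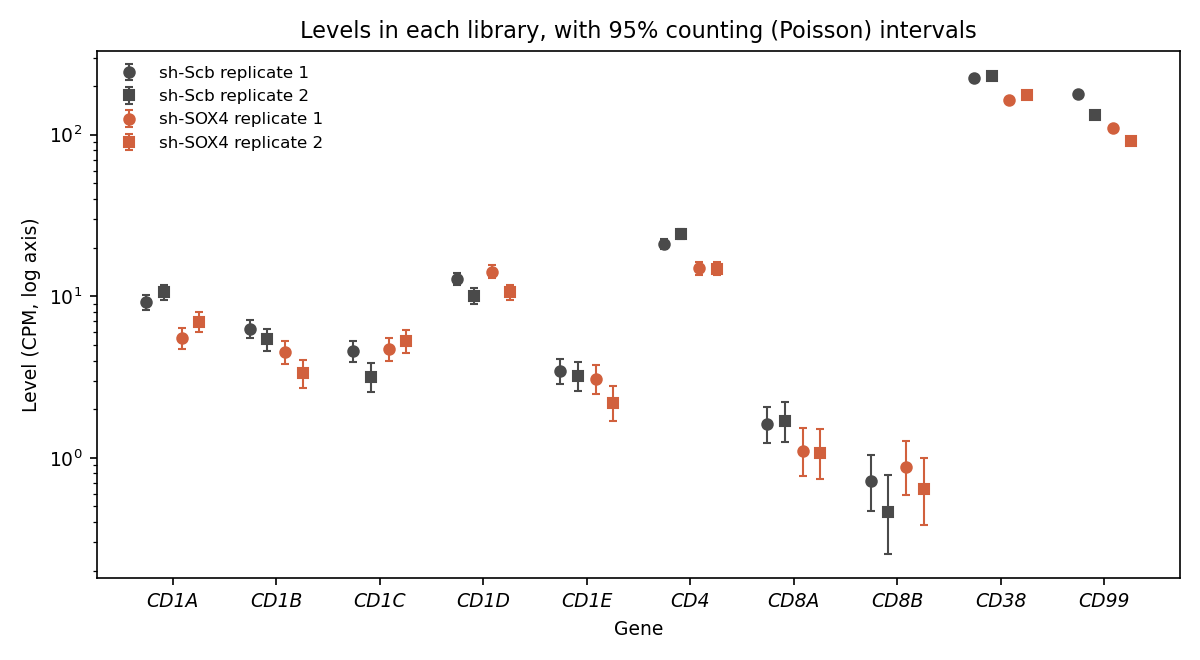
Depth-scaled level (CPM, log axis) of the 10 genes in each of the 4 libraries. Circles are replicate 1, squares replicate 2, grey sh-Scb and orange sh-SOX4, and bars are 95% Poisson intervals for counting error only. CD38 and CD99 lie highest, CD8A and CD8B lowest, and for CD4 both sh-SOX4 points at 14.9 and 14.8 CPM lie under both sh-Scb points.

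CD1A, the group 1 molecule that marks cortical thymocytes (ENSG00000158477, chromosome 1, 158254137 to 158258269 on GRCh38), was counted 346 and 318 times in sh-Scb and 174 and 207 times in sh-SOX4. Its level was 9.15 and 10.6 CPM in sh-Scb and 5.49 and 6.95 CPM in sh-SOX4. Both sh-SOX4 libraries lay under both controls. The mean went from 9.85 ± 0.994 to 6.22 ± 1.04 CPM (SD, n = 2), with a log2 fold change of -0.66 (SE 0.17) and an edgeR adjusted p of 0.0103. By the model, sh-SOX4 stood at 63.1% of the controls (95% interval 48.4% to 82.4%). Without sh-SOX4 replicate 1 the edgeR adjusted p was 0.0588, with a log2 fold change of -0.50.

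CD1B, the group 1 molecule with the largest lipid-binding groove (ENSG00000158485, chromosome 1, 158327951 to 158331531), was the weakest of the calls. It was counted 237 and 163 times in the controls and 143 and 99 times with the SOX4 hairpin, or 6.27 and 5.41 CPM against 4.51 and 3.33 CPM. Both sh-SOX4 values lay under both controls. The log2 fold change was -0.58 (SE 0.21), and the edgeR adjusted p of 0.0489 lay just under the threshold. The call was lost with DESeq2 (adjusted p 0.11), without a filter on low counts (edgeR adjusted p 0.0679), without sh-Scb replicate 1 (0.194, log2 fold change -0.46) and without sh-SOX4 replicate 2 (0.246, log2 fold change -0.38).

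CD1C (ENSG00000158481, chromosome 1, 158289786 to 158293630), the group 1 molecule found on many dendritic cells, was not called. It was at 4.55 and 3.15 CPM in sh-Scb and 4.70 and 5.27 CPM in sh-SOX4, from 172, 95, 149 and 157 counts. Both sh-SOX4 values lay above both controls, but sh-Scb replicate 1 came close to them and the controls differed 1.44-fold from each other. The log2 fold change was 0.37 (SE 0.22), with a 95% interval from -0.14 to 0.87 and an edgeR adjusted p of 0.219.

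CD1D (ENSG00000158473, chromosome 1, 158179947 to 158184896), the molecule seen by natural killer T cells, was not called. It was at 12.8 and 10.1 CPM in sh-Scb and 14.2 and 10.6 CPM in sh-SOX4. The groups overlapped, and in each group replicate 1 was the higher. The log2 fold change was 0.11 (SE 0.17) with an edgeR adjusted p of 0.64. The interval of the difference, 82.3% to 142% of the control level, holds changes in either direction that these libraries could not resolve. CD1E, the intracellular lipid-loading member (ENSG00000158488, chromosome 1, 158353696 to 158357553), was at 3.44 and 3.19 CPM in sh-Scb and 3.06 and 2.18 CPM in sh-SOX4. Its groups did not overlap, yet the log2 fold change of -0.34 (SE 0.25) did not pass, with an edgeR adjusted p of 0.303 and an interval from -0.89 to 0.22.

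**Figure D2:**
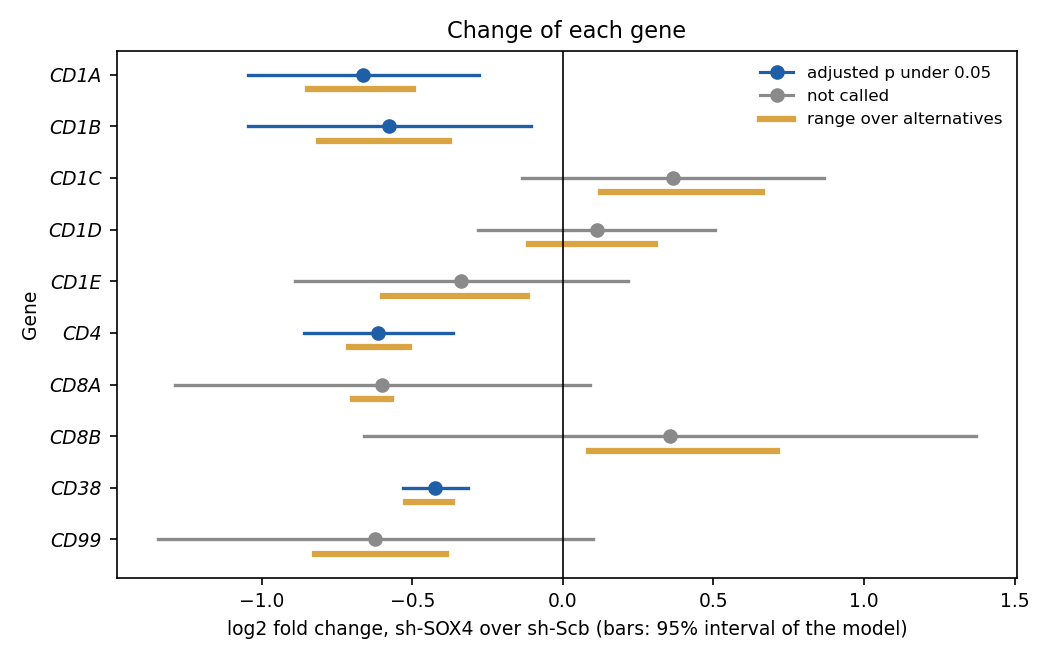
Change of each gene in sh-SOX4 relative to sh-Scb on the log2 scale, with the model's 95% interval as a thin bar and the range over 11 other settings as a thick yellow bar. CD1A, CD1B, CD4 and CD38 (blue) have intervals under 0, and the interval of CD38, from -0.53 to -0.32, is the narrowest.

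Levels were compared between genes only per kilobase of merged exons (RPKM, computed from CPM and GENCODE exon lengths). In sh-Scb the order was CD38 at 33.2, CD99 at 31.6, CD1D at 5.09, CD4 at 4.97, CD1A at 4.70, CD1B at 4.19, CD1C at 2.68, CD1E at 1.5, CD8A at 0.455 and CD8B at 0.316 RPKM. CD38 and CD99 did not differ beyond their spread, nor did each neighbour among CD1D, CD4, CD1A and CD1B. CD1C lay under CD1B, CD1E under CD1C and CD8A above CD8B in both control libraries. In sh-SOX4, CD1C at 3.47 ± 0.284 RPKM (SD, n = 2) came next after CD1D, ahead of CD4 at 3.25 ± 0.0102, CD1A at 2.97 ± 0.495 and CD1B at 2.81 ± 0.60 RPKM. CD1C lay above CD4 in both libraries, but its range overlapped that of CD1A. CD4 lay above CD1B in both libraries, at 3.25 against 3.23 RPKM in replicate 1 and 3.24 against 2.38 RPKM in replicate 2. The range of CD1A overlapped those of CD4 and CD1B.

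The CD1 genes summed to 36.2 and 32.4 CPM in the controls, and to 32.0 and 28.3 CPM in sh-SOX4. The lower control and the higher sh-SOX4 library were close. The share of CD1C within the sum differed more, while that of CD1A was close at the nearest libraries. CD1A made up 22.6% and 29.6% of the family's RPKM in the controls and 15.6% and 22% in sh-SOX4. CD1C made up 16.4% and 12.9% in the controls and 19.5% and 24.4% in sh-SOX4. The ratio of CD1A to CD1C per length was 1.38 and 2.29 in the controls and 0.80 and 0.903 in sh-SOX4, so both sh-SOX4 libraries had more CD1C than CD1A and both controls the reverse. An exact two-sided permutation test of this ratio gave p = 0.333, the smallest that 2 libraries against 2 allow (adjusted p 0.40 over the 6 sums and ratios compared). A difference in response between CD1 genes is therefore not shown by a test.

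**Figure D3:**
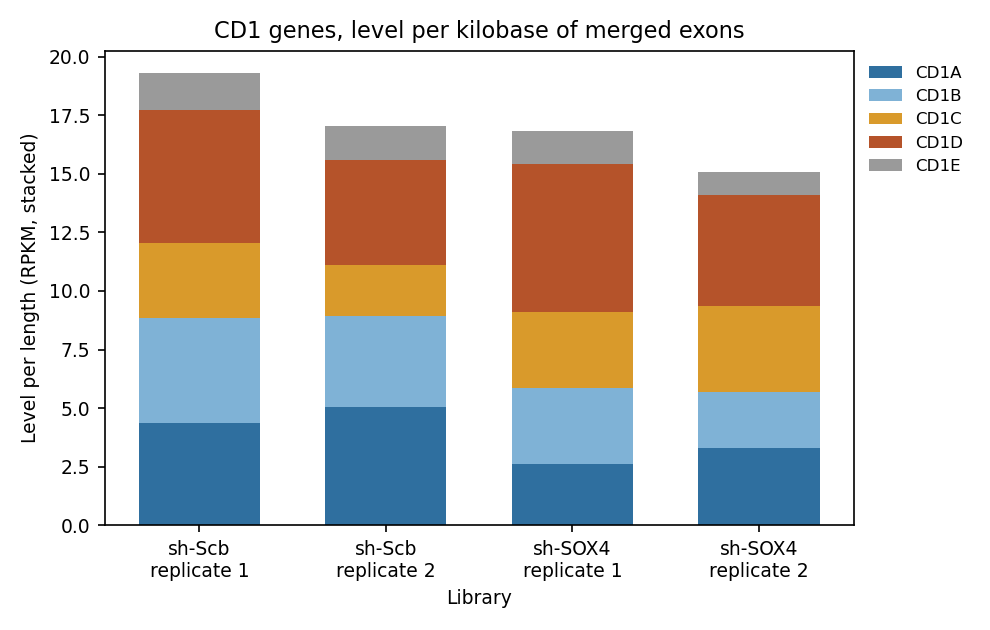
Stacked level per kilobase of exon (RPKM) of the CD1 genes, with 1 bar per library. The dark blue CD1A part is 4.37 and 5.04 RPKM in sh-Scb and 2.62 and 3.32 RPKM in sh-SOX4, while the yellow CD1C part is 3.17 and 2.2 against 3.27 and 3.68 RPKM.

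The CD1 genes lie within 178 kb of chromosome 1, and 3 further tested genes lie within 250 kb of 1 of them. All 3 fell in sh-SOX4, beside the 20.9% of all IDs called lower. KIRREL1, a cell adhesion molecule of the nephrin family, fell from 46.97 ± 1.21 to 31.4 ± 2.16 CPM (SD, n = 2), a log2 fold change of -0.58 with an edgeR adjusted p of 0.000256. The others were a lincRNA, ENSG00000176320, at -0.74 (edgeR adjusted p 0.0108), and a processed pseudogene, ENSG00000229914, at -0.90 (edgeR adjusted p 0.0102), both between CD1D and CD1A. Without sh-SOX4 replicate 2 the edgeR adjusted p was 0.0575 for the lincRNA and 0.0606 for the pseudogene.

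**Figure D4:**
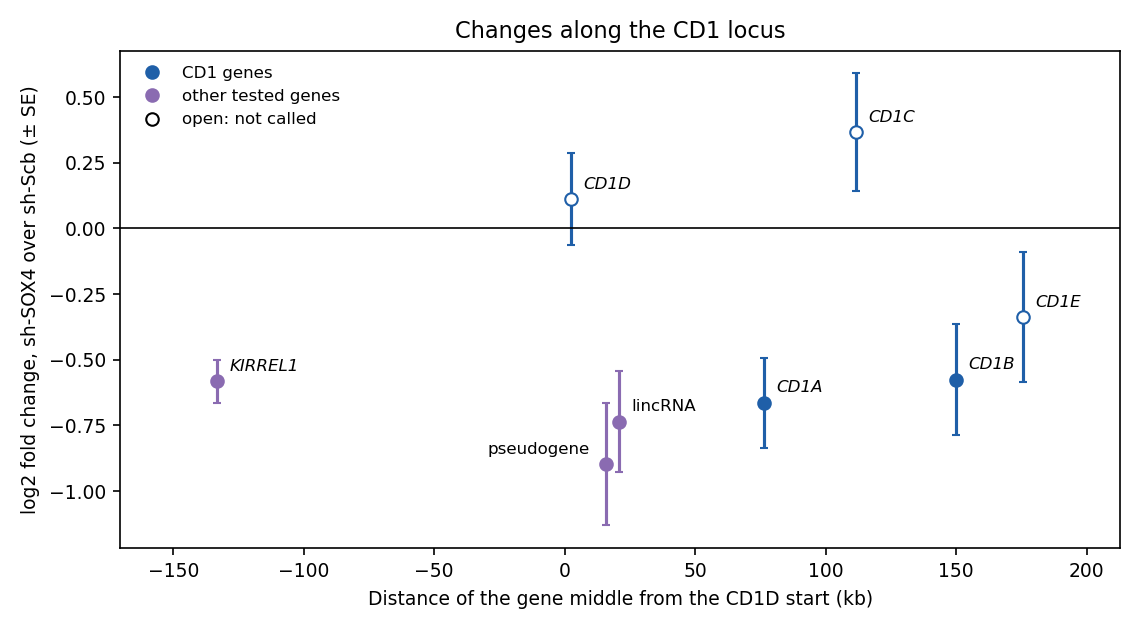
Log2 fold change (± SE) of every tested gene near the CD1 cluster against the distance of its middle from the start of CD1D, in kb. Blue points are CD1 genes, purple points other genes, and open points were not called. CD1D at 0.11 and CD1C at 0.37 are the points above 0.

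CD4, the co-receptor for class II molecules (ENSG00000010610, chromosome 12, 6786858 to 6820808), fell. It was counted 799 and 735 times in the controls and 473 and 442 times with the SOX4 hairpin, or 21.1 and 24.4 CPM against 14.9 and 14.8 CPM. The sh-SOX4 libraries were nearly equal and both lay under the controls. The log2 fold change was -0.61 (SE 0.11), with an edgeR adjusted p of 0.0013, and the level left was 65.4% of control (95% interval 55.1% to 77.6%). CD4 was called under each of the 11 other settings.

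Around CD4, 39 tested genes lie within 250 kb, of which 7 rose, 11 fell and 21 were not called, with a median log2 fold change of -0.06. Its nearest tested neighbour, GPR162, an orphan receptor gene, had a log2 fold change of -0.20 and was not called (edgeR adjusted p 0.417). P3H3, a collagen prolyl hydroxylase gene, was called higher at 0.40 (edgeR adjusted p 0.0212), but lost its call with DESeq2 (adjusted p 0.0622), with library totals (edgeR adjusted p 0.0669), and when sh-Scb replicate 1 (0.0792) or either sh-SOX4 library (0.0934 for replicate 1, 0.0517 for replicate 2) was left out.

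CD8A and CD8B encode the chains of the co-receptor for class I molecules, and both were at low counts. CD8A (ENSG00000153563, chromosome 2, 86784610 to 86808396) was counted 61 and 51 times in the controls and 35 and 32 times with the SOX4 hairpin, or 1.61 and 1.69 CPM against 1.10 and 1.07 CPM. The groups did not overlap, and the log2 fold change of -0.60 (SE 0.31) was close to that of CD4, but the edgeR adjusted p was 0.145 and none of the 11 other settings called it. The 95% counting interval for CD8A in sh-SOX4 replicate 1 ran from 0.769 to 1.53 CPM and that in sh-Scb replicate 1 from 1.23 to 2.07 CPM, so they overlap. CD8B (ENSG00000172116, chromosome 2, 86815339 to 86861924) was counted 27 and 14 times in the controls and 28 and 19 times with the SOX4 hairpin. Its groups overlapped, with a log2 fold change of 0.36 (SE 0.46) and an edgeR adjusted p of 0.563. Its near-identical copy CD8B2 had 0 counts in every library, where 3 counts correspond to 0.0794 to 0.101 CPM. How the counting treats reads shared by such copies is not stated in the labels.

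The ratio of CD4 to CD8A per length was 10.4 and 11.4 in the controls and 10.7 and 11 in sh-SOX4. Its means, 10.9 and 10.8, differed by less than the spread of the controls (exact two-sided permutation p = 1.0). Of 8 tested genes within 250 kb of the CD8 genes, 2 rose, 1 fell and 5 were not called. The one that fell was RNF103, a ubiquitin ligase gene of the endoplasmic reticulum, at a log2 fold change of -0.72 (edgeR adjusted p 2.22e-05), chosen after its value was seen. Of its exonic bases 24.7% overlap other genes. The nearest was RMND5A, a ubiquitin ligase subunit gene, which rose by 0.17 (edgeR adjusted p 0.0119). Without sh-SOX4 replicate 2 its edgeR adjusted p was 0.0577, and with scaling to library totals its log2 fold change was 0.07 (edgeR adjusted p 0.229). RGPD1, a gene related to the nuclear pore protein RANBP2, rose by 0.43 (edgeR adjusted p 0.0013).

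CD38, the surface enzyme that consumes NAD to make cyclic ADP-ribose (ENSG00000004468, chromosome 4, 15778275 to 15853230), had the highest mean level per length of the 10 genes. It was counted 8533 and 6918 times in the controls and 5201 and 5229 times with the SOX4 hairpin. Its level was 226 and 229.7 CPM in sh-Scb and 164 and 176 CPM in sh-SOX4, and both sh-SOX4 values lay under both controls. The log2 fold change was -0.42 (SE 0.048), with an edgeR adjusted p of 6.29e-05, and 74.6% of the control level remained (95% interval 69.2% to 80.4%). The call held under each of the 11 other settings. The change was the smallest of the 4 calls, and 46.2% of all tested IDs changed by more than CD38 in size.

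Of 6 tested genes within 250 kb of CD38, 2 fell and 4 were not called. BST1, the paralog of CD38 beside it and also an ADP-ribosyl cyclase gene, was barely detected, counted 16 and 15 times in the controls and 13 and 33 times with the SOX4 hairpin. Its log2 fold change was 0.71 (SE 0.55) with an edgeR adjusted p of 0.33, and the value rested on sh-SOX4 replicate 2, without which it was -0.16. FAM200B, the next nearest, had a log2 fold change of 0.27 and was not called (edgeR adjusted p 0.0898).

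CD99, a heavily glycosylated surface protein of thymocytes and a marker of T cell leukemia blasts (ENSG00000002586, X chromosome, 2691133 to 2741309, in the pseudoautosomal region), was counted 6729 and 3984 times in the controls and 3489 and 2728 times with the SOX4 hairpin. Its level was 178 and 132 CPM in sh-Scb and 110 and 91.6 CPM in sh-SOX4. Both sh-SOX4 libraries lay under both controls, and the controls differed 1.35-fold from each other, against 1.02-fold for CD38 at a like level. The log2 fold change was -0.62 (SE 0.22), and edgeR did not call it, with an adjusted p of 0.129 and an interval from -1.35 to 0.10. DESeq2 called it, with an adjusted p of 0.031. Leaving out sh-Scb replicate 1 gave a log2 fold change of -0.39 (edgeR adjusted p 0.0159) and leaving out sh-Scb replicate 2 gave -0.82 (edgeR adjusted p 0.000516). In those fits the lone control is assumed to vary like the other group. Of 4 tested genes within 250 kb of CD99, 1 rose (ZBED1, by 0.48, edgeR adjusted p 0.00187, chosen after its value was seen) and 3 were not called. The pseudogene CD99P1, which lies beside CD99 and resembles it, was at 2.01 and 4.45 CPM in sh-Scb and 2.52 and 3.66 CPM in sh-SOX4, so that replicate 2 was the higher in each group there, while replicate 1 was the higher in CD99. XG, a blood group gene related to CD99 and lying beside it, was at 0.686 ± 0.11 CPM in the controls and 1.12 ± 0.0188 CPM with the SOX4 hairpin (SD, n = 2) and was not called (edgeR adjusted p 0.165).

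The 10 genes were set beside 5 lists of partner genes, which were drawn up with earlier results of these data known. Their shares are to be set beside the 44.1% called, 23.2% higher and 20.9% lower, among all tested IDs.

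CD1 molecules are folded with calnexin, calreticulin and beta-2 microglobulin, sorted to endosomes by adaptor complexes and loaded there with help from saposins. Of 25 such genes 24 were measured, 7 rose and 7 fell, with a median log2 fold change of 0.05. CALR, the chaperone calreticulin, fell from 1345 ± 28.8 to 990.4 ± 1.72 CPM (SD, n = 2). GM2A, a lipid transfer protein of lysosomes, fell by 0.68 (SE 0.058), and NPC2, which carries cholesterol there, fell by 0.49 (SE 0.065). Adjusted p-values from edgeR for these 3 genes ran from 7.22e-06 for CALR to 0.000179 for NPC2. B2M, the light chain of CD1 proteins, fell from 755 ± 17.9 to 667 ± 15.8 CPM (SD, n = 2), a log2 fold change of -0.18 with an edgeR adjusted p of 0.00427, which was 0.0632 without sh-SOX4 replicate 2. CTSS, the protease cathepsin S, rose by 0.73 (SE 0.15). MTTP, which lipidates CD1D, had a log2 fold change of -0.98 and was not called (edgeR adjusted p 0.0805). With scaling to library totals 4 genes of this list rose and 8 fell.

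Factors that set co-receptor choice, and LCK, the kinase that binds the tails of CD4 and CD8, made up a list of 20 genes, all measured. Of these 10 rose, and edgeR called 0 lower, with a median log2 fold change of 0.17. DESeq2 and limma-voom also called 0 lower at an adjusted p under 0.05. At an unadjusted p under 0.05 edgeR, DESeq2 and limma-voom each gave 1 lower gene. IKZF1, the Ikaros factor, rose from 297 ± 2.51 to 420.3 ± 1.64 CPM (SD, n = 2). RUNX3, which represses CD4 in the CD8 lineage, rose from 47.1 ± 1.58 to 76.8 ± 0.703 CPM (SD, n = 2). MYB, a factor of early thymocytes, rose by 0.46 (SE 0.041) and ETS1 by 0.42 (SE 0.038). The edgeR adjusted p-values of these 4 lay between 5.29e-06 and 1.31e-05. ZNF683, a transcription factor of tissue-resident T cells, showed the largest rise of the list, 1.35 (SE 0.29), from 42 and 57 counts to 124 and 110.

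ZBTB7B, the factor that commits thymocytes to the CD4 lineage, had a log2 fold change of 0.01 (SE 0.13) and LCK one of 0.04 (SE 0.042), and neither was called. With scaling to library totals both turned, to -0.09 for ZBTB7B and -0.06 for LCK, and still neither passed. Under that scaling GATA3, RUNX1 and SATB1 were called lower, and 8 genes higher. Without sh-Scb replicate 1, SATB1, a chromatin organiser of thymocytes, was called lower as well, with a log2 fold change of -0.23 (edgeR adjusted p 0.000853).

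The list set around CD38 held 20 genes, of NAD and adenosine metabolism and others such as RARA, TRPM2 and ADAR. Of the 20 genes 18 were measured, 9 rose and 1 fell, with a median log2 fold change of 0.27. RARA, TRPM2 and ADAR were among those that rose, so the count is not one of metabolic enzymes alone. The gene that fell was NAMPT, the rate-limiting enzyme of NAD salvage, from 129 ± 5.52 to 75.2 ± 2.41 CPM (SD, n = 2), in the same direction as CD38. ADA, adenosine deaminase, rose from 375 ± 7.06 to 595 ± 21.9 CPM (SD, n = 2). TRPM2, a channel opened by ADP-ribose, rose by 1.29 (SE 0.14) and ADAR, an RNA-editing enzyme, by 0.25 (SE 0.037). NT5E, the ecto-enzyme CD73 that makes adenosine, rose from 4.15 and 4.32 CPM to 8.89 and 7.995 CPM. Adjusted p-values from edgeR for these 5 genes ran from 1.29e-06 for ADA to 0.000867 for NT5E. With scaling to library totals, 7 rose and 2 fell.

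Of 6 relatives and ligands of CD99, edgeR called 1 lower and 0 higher. DESeq2 and limma-voom also called 0 higher, and none was higher at an unadjusted p under 0.05 with any of the 3. PIANP, a ligand of the PILR receptors as CD99 is, fell from 4.31 ± 1.23 to 2.21 ± 0.131 CPM (SD, n = 2; edgeR adjusted p 0.0129), which became 0.131 without sh-Scb replicate 2. PILRB, an activating receptor gene, was at 11.98 and 22.7 CPM in the sh-SOX4 libraries and was called lower without sh-SOX4 replicate 2 (edgeR adjusted p 0.00638). Of its exonic bases, 50.5% are shared with other annotated genes, so its count is uncertain. CD99L2, a relative of CD99, was at 41.2 ± 1.72 CPM in sh-Scb and 43.6 ± 0.801 CPM in sh-SOX4 (SD, n = 2). Its log2 fold change of 0.08 was -0.02 with scaling to library totals, and neither passed.

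The other surface molecules of thymocytes went both ways. Of 28 listed 27 were measured, 10 rose and 8 fell, with a median log2 fold change of -0.0038. CD3G, a chain of the T cell receptor complex, rose from 107 ± 8.7 to 218 ± 3.6 CPM (SD, n = 2). The co-stimulatory receptor CD28 rose by 0.63 (SE 0.053) and the phosphatase PTPRC by 0.46 (SE 0.046). Adjusted p-values from edgeR for these 3 genes were between 7.71e-07 and 2.69e-05. The 8 that fell were CCR7, CD247, CD5, CD6, CD69, CXCR4, KIT and PTCRA. KIT, the stem cell factor receptor of early progenitors, was counted 124 and 94 times in the controls and 17 and 16 times with the SOX4 hairpin, a log2 fold change of -2.57 (SE 0.30). PTCRA, the surrogate chain of the pre-T cell receptor, was counted 58 and 30 times against 8 and 12, a log2 fold change of -1.95 (SE 0.47), with an edgeR adjusted p of 0.00711 that was 0.0618 without sh-Scb replicate 1. CD69, an early activation marker, fell from 50.5 ± 3.44 to 30.8 ± 1.17 CPM (SD, n = 2).

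**Figure D5:**
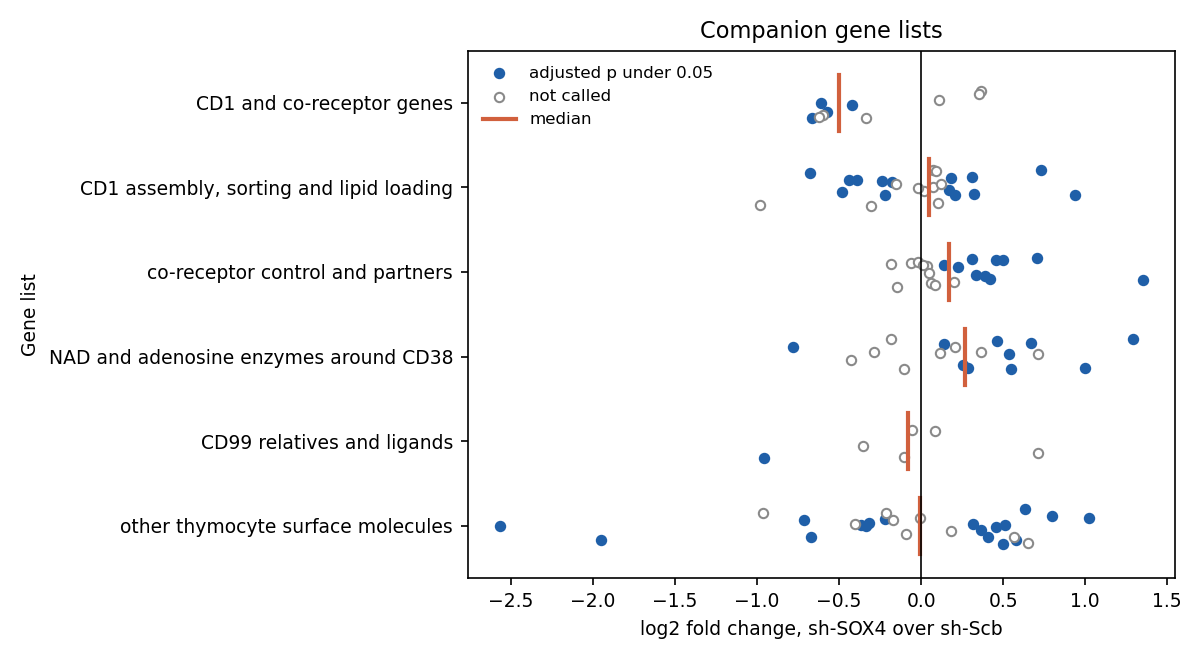
Log2 fold change of each measured gene in the 10-gene set and in the 5 companion lists. Filled points were called at an adjusted p under 0.05, open points were not, the red line is the median, and vertical scatter within a row carries no value. The 10-gene set has its median at -0.50, with 4 filled points, all under 0, and the co-receptor control list has 10 filled points, all above 0.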

How the data were processed

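The table holds whole-number counts per Ensembl gene ID, as deposited by the authors and not normalized, for 4 libraries. Tools named by the submitters' processing notes are StringTie and HISAT2 2.2.0, with hg38 as the build. Which counter, annotation release, strand setting and filters were used is not stated there. Control columns carry the name NC and were taken as sh-Scb, because the other columns name SOX4 and replicate numbers match. Symbols were found for 56105 IDs, and coordinates and exon lengths come from GENCODE release 29 on GRCh38.

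After a filter on low counts (filterByExpr with a minimum count of 10, required at the matching CPM in as many libraries as a group holds, and a minimum total of 15) and TMM scaling, group means were compared with edgeR 4.0.16 in R 4.3.3 (robust quasi-likelihood, Benjamini-Hochberg over 19897 IDs, threshold 0.05, 2 residual degrees of freedom). CPM and RPKM were computed from these counts. Libraries of a group differed by more than sampling (the median chi-square per gene was 1.71 for sh-Scb and 1.60 for sh-SOX4, and sampling alone gives 0.455). Poisson intervals and floors cover counting error only. The fit was checked on simulated counts. The other settings tried were scaling by library totals or median ratios, no filter, a replicate block, DESeq2 1.42.0, limma-voom (limma 3.58.1), each library left out, and rows sharing a symbol summed. The genes and lists were chosen with earlier results of these data known. Of each list the text names the 4 called genes with the smallest adjusted p, a gene called alone in its direction and the nearest 2 neighbours of each locus; other list genes were chosen after their values were seen. Some genes that this rule would name are not reported here. No set was tested as a set. Figures were drawn with matplotlib 3.10.9.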

Additional observations from a re-analysis of the deposited data

How the results depend on the processing

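Of the 10 genes, CD4 and CD38 were called lower under all 11 other settings, CD1A under 10, CD1B under 7 and CD99 under 4. Lower calls among the 10 numbered 3 to 5 over these settings and higher calls 0 in each. Over all 110 values of these genes, 99 kept direction and call, 5 lost a call, 4 gained one and 2 changed sign. The sign changes were those of CD1D, which is not called: its log2 fold change ran from -0.11 to 0.31 when each library was left out. The cause of these shifts was not tested. With a replicate block, 5 of the 10 genes were called lower: CD99 was called, at a log2 fold change of -0.61 (edgeR adjusted p 5.74e-05). Deviations of same-numbered libraries were not correlated (correlation -0.01). That value is not given per gene, so it cannot show whether same-numbered libraries share a batch that acts on some genes. In both groups the same-numbered library was the higher for CD1A, CD1B, CD1D, CD1E, CD8B, CD38 and CD99. For CD1C, CD4 and CD8A it was not. Whether a replicate block is warranted was not tested. The fit with a replicate block called 8378 of 19897 IDs, against 8775 in the main comparison.

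With library totals, 4 genes of the CD1 assembly list rose, 3 of co-receptor control fell and 2 of the NAD list fell. Leaving out each library gave 0 to 1 lower calls in co-receptor control and 0 to 2 among CD99 relatives. Among other named genes, none of them called in the main comparison, signs changed for LCK (-0.0616), ZBTB7B (-0.0888) and CD99L2 (-0.0172) with library totals. They changed too for ZBTB7B with limma-voom (-0.00031) and for CD99P1 with limma-voom (0.0717) and with a replicate block (0.0091). Leaving out a library gave LCK values from -0.0016 to 0.0788, ZBTB7B from -0.0904 to 0.12, CD99P1 from -0.52 to 0.61, BST1 from -0.16 to 1.27, RUNX1 from -0.0449 to 0.00082 and PILRB from -0.639 to 0.29, PILRB being called at the lower end. Counts of 14 to 61, as for CD8A and CD8B, give wide intervals, so changes like that of CD4 could not be detected there.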
